A study of Mus musculus with 9 samples.

Results

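The 45 genes described here encode hnRNP, PTB, ELAVL and related RNA-binding regulators of splicing, other than SR proteins. They were chosen by symbol and make up 45 of the 54325 gene symbols, and 527 of the 140658 transcripts, in the deposited table. RNA fragments that co-immunoprecipitated with p-UPF1, fragments from a control IP with rabbit IgG (rIgG) and the fragments of the input were each sequenced in 3 libraries. All 9 libraries came from N2A cells, a mouse neuroblastoma line, treated with 200 nM okadaic acid, a phosphatase inhibitor, for 2 h, and no untreated group was analysed here. The sample labels do not say whether the 3 libraries of a group came from separate cultures, so the p-values measure only the spread between these libraries, which may be technical. In this bulk RNA a level is a share of the fragments recovered, so fewer cells with an mRNA and fewer copies per cell cannot be told apart.

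Nonsense-mediated decay (NMD) removes mRNAs on which translation stops upstream of an exon junction, and UPF1, its central helicase, is phosphorylated on such mRNAs. Many splicing regulators hold down their own level through NMD: the protein promotes a splice of its own pre-mRNA that leads to an early stop codon. PTBP1 and PTBP2 bind pyrimidine-rich RNA, and each makes a frameshifted mRNA when a short exon is skipped. In the annotation, Tial1 and Hnrnpll have NMD-type transcripts of another kind, in which an additional exon with a stop codon, a poison exon, is included.

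The following sequences show these events, since they tell the NMD-type transcripts described below from the coding ones. The share of NMD-type transcripts was called higher in Ptbp1, and only under some alternatives in Ptbp2, Tial1 and Hnrnpll. It was called lower in Hnrnpd, for which no sequence is printed. Of all 2221 genes tested, 12.4% were called higher and 11.5% lower. The sequences are those of transcripts of GENCODE M21 (GRCm38), written 5′ to 3′ on the strand of the gene. In the first pair, an exon of 34 nt that the coding transcripts Ptbp1-202 and Ptbp2-201 include and the NMD-type transcripts lack, capitals mark the 26 of 34 positions (76.5%) at which Ptbp1 (chr10:79862014-79862047, plus strand) and Ptbp2 (chr3:119724612-119724645, minus strand) have the same base.
Ptbp1 skipped exon: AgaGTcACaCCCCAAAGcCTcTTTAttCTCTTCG
Ptbp2 skipped exon: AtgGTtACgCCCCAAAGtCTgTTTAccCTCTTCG

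In the second pair, the junction of the NMD-type transcript, lower case is the end of the exon before the skipped one and capitals are the start of the exon after it, 15 nt of each. The Ptbp1 junction joins positions 79860969 and 79862449 of chromosome 10, and the Ptbp2 junction joins positions 119726066 and 119724186 of chromosome 3.
Ptbp1 junction: aatctgaaccctgagGCGTCTACGGTGATG
Ptbp2 junction: aatttaaatgaagagGTGTTTATGGAGATG

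In the third pair, the additional exon is shown from its first base to the in-frame stop codon, in capitals, of Tial1-206 (chr7:128444083-128444100, minus strand, of an exon of 59 nt) and of Hnrnpll-203 (chr17:80044976-80045022, minus strand, of an exon of 83 nt).
Tial1 additional exon: gtgtcaccaccccaaTAA
Hnrnpll additional exon: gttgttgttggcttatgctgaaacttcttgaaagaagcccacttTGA

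The input libraries held 25184464 to 29857955 counts in all, against 5312526 to 6246110 in the p-UPF1 IP and 79010 to 474491 in the rIgG IP. The smallest share that 3 counts can show was thus 0.100 to 0.119, 0.480 to 0.565 and 6.32 to 38.0 CPM (counts scaled to the library's total), respectively, and these floors cover counting error only. The 45 genes took 0.156 to 0.160% of the counts in input, 0.160 to 0.171% in the p-UPF1 IP and 0.116 to 0.125% in the rIgG IP. Of 12 neuronal and sympathetic markers, 10 had over 3 counts in every input library, and their summed level was 160 to 181 CPM. Markers of glia summed to 1.37 to 2.04 CPM in input and to 9.93 to 13.1 CPM in the p-UPF1 IP, where Gfap and Aqp4 were at 0. Their part in the results was not tested. Markers of fibroblasts summed to at most 0.0794 CPM in input and 0.565 CPM in the p-UPF1 IP, and those of macrophages to at most 0.119 CPM in input and 0 in both IPs.

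Per length, Hnrnpa1 had the highest level in input, 66.5 ± 17.0 TPM (counts scaled to transcript length and then to the library's sum; SD, n = 3), followed by Hnrnpk at 60.3 ± 3.40 TPM, which lay within that spread. Next came Pcbp2 at 47.3 ± 3.18 TPM and Hnrnpu at 42.1 ± 0.985 TPM. Tia1 (1.96 ± 0.0641 TPM), Elavl3 (1.72 ± 0.224 TPM) and the Nova genes (1.12 ± 0.0271 TPM for Nova1 and 0.950 ± 0.107 TPM for Nova2) were near the bottom of the order. In the p-UPF1 IP the order differed: Hnrnph1 was first, at 69.5 ± 5.91 TPM, Ptbp1 second, at 50.9 ± 7.93 TPM, and Pcbp2 had 3.98 ± 1.21 TPM. Celf2 was at the limit of detection, with 0, 6 and 4 counts in the input libraries and 0 counts in the 6 other libraries, so no fold is given for it.

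Setting the p-UPF1 IP against input asks which mRNAs were over- or under-represented among p-UPF1-bound fragments. Elavl3, Hnrnph1, Ptbp1, Rbfox2, Ewsr1, Ptbp2 and Hnrnpul2 rose, and Pcbp2, Hnrnph2, Hnrnpf and Elavl1 were the genes that fell furthest. By edgeR's quasi-likelihood test with Benjamini-Hochberg adjustment over 16919 genes, 7 of 45 were higher (15.6%, where 26.3% of all genes tested were higher) and 29 of 45 were lower (64.4%, where 35.7% of all were lower), at an adjusted p under 0.05. Past a log2 fold change of 1 in size, 4 were higher and 12 lower, where 17.3% and 26.5% of all genes were. The median log2 fold change was -0.55 over the 45 and -0.42 over all genes tested. This gap depended on the filter for low counts. With filterByExpr the medians were -0.51 over 44 of these genes and -0.11 over all. With no filter they were -0.63 over the 45 and -1.42 over all. Scaling by library totals in place of TMM moved the median of all genes by 0.41, to -0.01, and the genes called to 14 higher and 18 lower, and raised the share of higher genes among all calls from 42.4% to 56.7%. All 7 rises, and 18 of the 29 falls, held in each of 13 alternative fits.

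**Figure D1:**
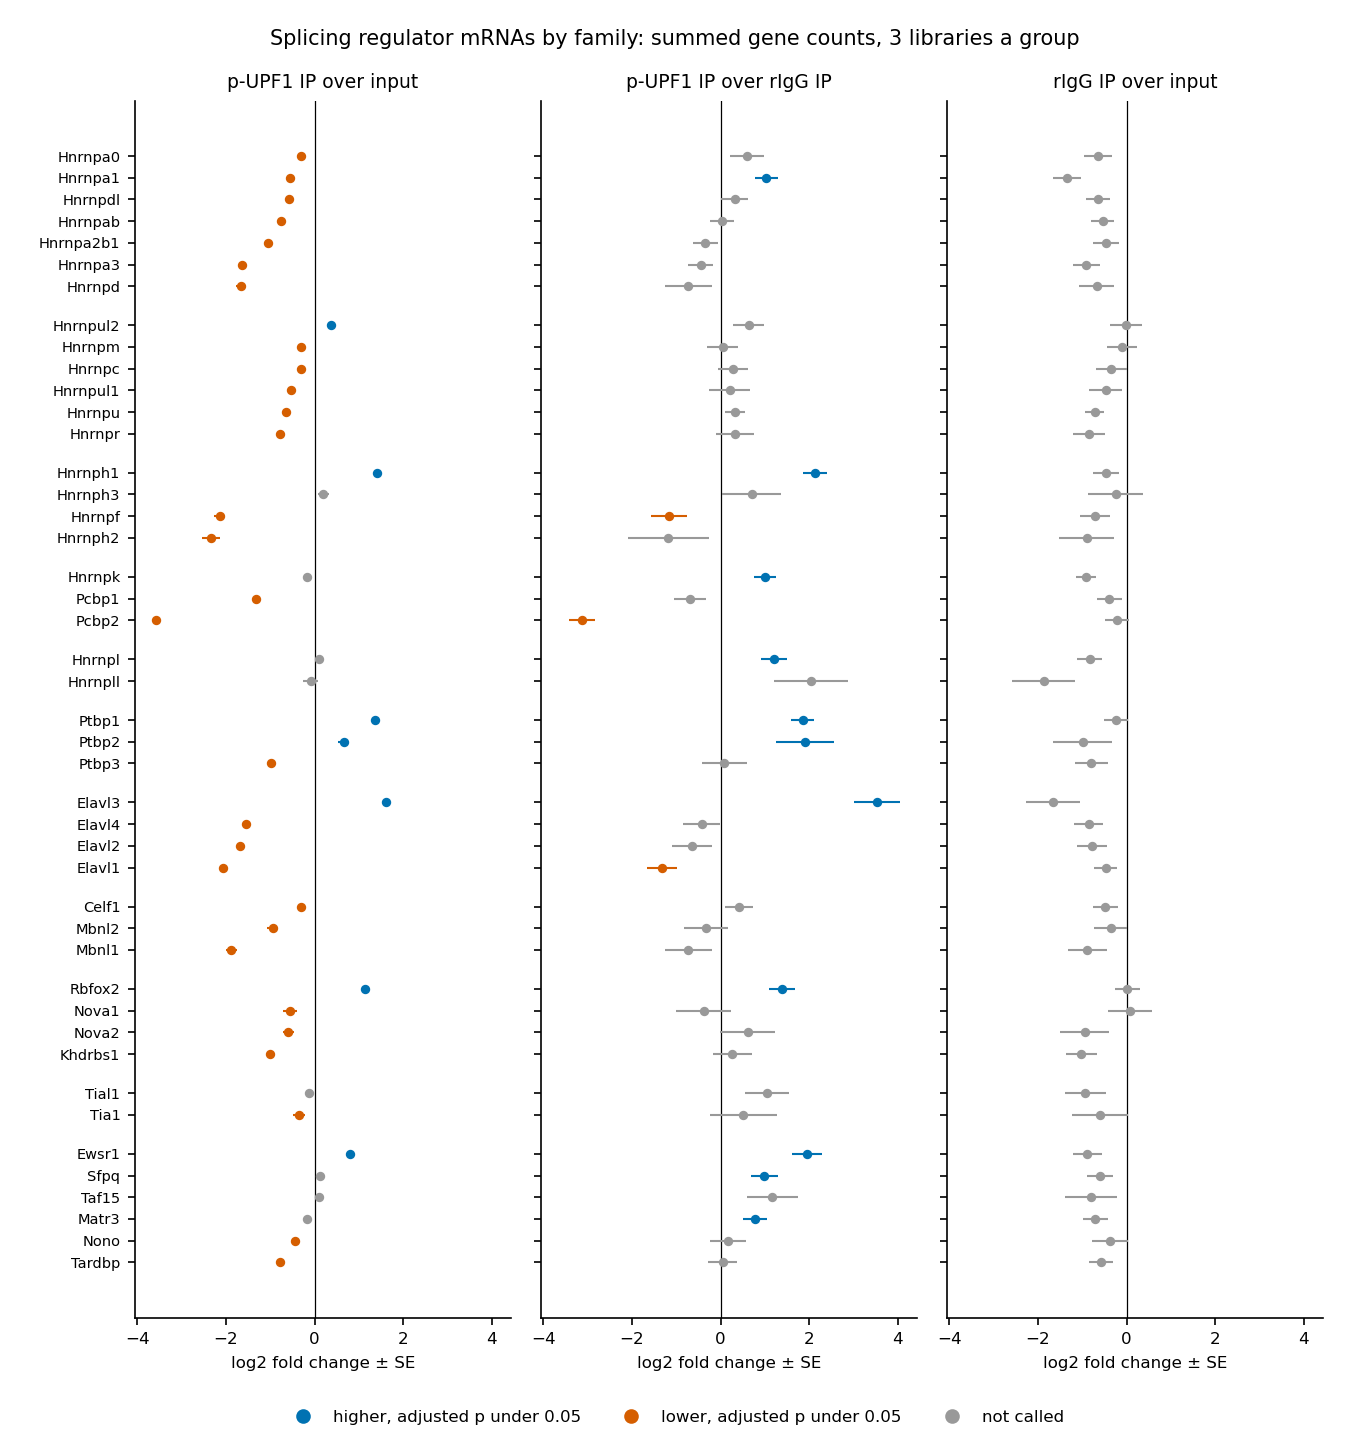
Log2 fold change ± SE on summed gene counts (horizontal axes) of 44 of the 45 genes, grouped by family (Celf2, near 0 counts, is left out), for the 3 comparisons of groups of 3 libraries; blue is higher, orange lower and grey not called. Left, 11 genes lie to the right of 0, of which 7 are called higher, with Elavl3 furthest at 1.61, and Pcbp2 is leftmost at -3.57. With library totals Hnrnpa0, Hnrnpc, Hnrnpk, Hnrnpll, Hnrnpm, Celf1, Tia1, Tial1 and Matr3 turn positive. In the middle, 11 are called higher and 3 lower, and on the right none is called.

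PTBP genes moved in both directions. Ptbp1, the general form, had 50.7, 48.8 and 55.9 CPM (scaled by TMM) in the input libraries and 130, 130 and 141 CPM in the p-UPF1 IP. The groups did not overlap, and the log2 fold change was 1.37 ± 0.0761 (SE), a 2.58-fold rise (adjusted p = 1.27e-07, edgeR). Ptbp2, the neuronal form, whose own exon PTBP1 represses in other cells, had 9.74, 9.78 and 11.6 CPM in input against 19.7, 15.7 and 14.2 CPM, which is a log2 fold change of 0.66 ± 0.127 (adjusted p = 0.00112, edgeR). Its p-UPF1 IP libraries all lay above its input libraries. Ptbp3, the third paralog, was lower, by 0.97 on the log2 scale (17.7 to 19.0 CPM in input, 8.32 to 10.2 CPM in the p-UPF1 IP).

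ELAVL proteins bind AU-rich elements and mostly stabilise mRNAs, and Elavl2, Elavl3 and Elavl4 are the neuronal members of the family. Elavl3 had the largest rise of the 45 genes, from 14.0, 12.0 and 11.5 CPM in input to 38.7, 39.0 and 36.9 CPM, a log2 fold change of 1.61 ± 0.0926 (adjusted p = 1.60e-07, edgeR). The other 3 fell. Elavl1, the ubiquitous HuR, went from 54.6, 54.1 and 57.5 CPM to 12.7, 11.7 and 15.2 CPM, 4.19-fold lower. Elavl2 went from 26.1, 26.5 and 28.5 CPM to 8.48, 8.38 and 8.32 CPM (3.22-fold lower), and Elavl4, or HuD, from 28.5, 31.1 and 33.1 CPM to 10.2, 10.7 and 11.0 CPM (2.90-fold lower). In none of the 4 did the groups overlap, and all alternatives left these 4 calls in place. Lack of overlap was not particular to them: it also held in uncalled genes such as Hnrnpk, Hnrnpl and Taf15. Its share over all genes was not computed.

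The hnRNP F/H proteins bind G-runs near splice sites. Hnrnph1 had 43.3, 48.5 and 50.1 CPM in input and 127, 124 and 126 CPM in the p-UPF1 IP, a log2 fold change of 1.41 ± 0.0742 (adjusted p = 8.45e-08, edgeR). Its paralogs Hnrnpf and Hnrnph2 went the other way. Hnrnpf had 39.6, 37.0 and 46.3 CPM in input and 9.83, 8.24 and 9.87 CPM in the p-UPF1 IP (4.41-fold lower), and Hnrnph2 had 9.52, 9.83 and 10.0 CPM against 2.20, 2.47 and 1.13 CPM (5.07-fold lower). For Hnrnpf and Hnrnph2, 38.1% and 20.5% of the 35-nt windows of their transcripts occur in transcripts of other symbols, mostly Gm6430 and Gm8775, so their counts depend on how the authors' quantification split shared reads. Hnrnph3 was not called (0.20 ± 0.133), and with library totals it was called higher (0.61).

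The PCBP proteins, with hnRNP K, bind C-rich RNA through KH domains. Pcbp2 had the largest fall, from 98.1, 102 and 100 CPM in input to 7.29, 8.51 and 9.30 CPM in the p-UPF1 IP, 11.9-fold lower (log2 fold change -3.57 ± 0.0931, adjusted p = 1.04e-09, edgeR). Its single-exon paralog Pcbp1 fell from 35.4, 37.3 and 34.6 CPM to 15.6, 12.5 and 14.8 CPM, 2.51-fold. Hnrnpk, with 98.2 to 105 CPM in input and 84.9 to 98.2 CPM in the p-UPF1 IP, was not called (-0.17 ± 0.0739), and with library totals its sign turned and it was called higher (0.24).

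All 7 hnRNP A/B/D genes were lower, with log2 fold changes of -1.67 to -0.30 (median -0.76), though with library totals Hnrnpa0 turned positive and Hnrnpa1 and Hnrnpdl were no longer called, and Hnrnpa0 (-0.30) was not called without the second or the third p-UPF1 IP library. Hnrnpd, or AUF1, which binds AU-rich elements, went from 17.7, 18.8 and 20.3 CPM to 5.26, 5.90 and 6.63 CPM, 3.18-fold lower. Hnrnpa3 fell 3.09-fold, from 101, 90.1 and 116 CPM to 31.0, 33.9 and 34.1 CPM. Hnrnpa2b1, a partner of hnRNP A1 in splicing repression, fell 2.06-fold, from 77.3, 76.8 and 87.5 CPM to 43.7, 34.2 and 39.9 CPM. Hnrnpa1 itself went from 160, 192 and 168 CPM to 116, 118 and 121 CPM (1.46-fold lower) and Hnrnpdl from 49.0, 49.8 and 53.5 CPM to 35.3, 33.1 and 33.6 CPM (-0.58 ± 0.0725 on the log2 scale). Hnrnpab fell 1.70-fold, from 68.5 to 72.9 CPM in input to 39.8 to 42.2 CPM in the p-UPF1 IP. Windows shared with other symbols made up 29.0% of Hnrnpa1 and 27.9% of Hnrnpa3.

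In hnRNP C, M, R and U, 5 of 6 genes were lower, from -0.78 for Hnrnpr (27.5, 27.7 and 29.5 CPM in input, 14.4, 16.6 and 18.0 CPM in the p-UPF1 IP) to -0.30 for Hnrnpm, and with library totals Hnrnpc and Hnrnpm turned positive. Hnrnpc was not called without the second p-UPF1 IP library, and Hnrnpm was not called without the third input or the third p-UPF1 IP library. Hnrnpu had 124 to 133 CPM in input and 74.7 to 87.7 CPM in the p-UPF1 IP (-0.65 ± 0.0772), and Hnrnpul1 had a log2 fold change of -0.53, which was not called with library totals. Hnrnpul2, a relative of the nuclear scaffold protein hnRNP U, was the sixth and rose (0.37 ± 0.0808; 23.0, 23.2 and 24.4 CPM against 31.7, 31.7 and 27.8 CPM). The hnRNP L pair was not called over input. Hnrnpl had 47.6, 49.2 and 50.3 CPM in input and 52.1, 53.3 and 53.6 CPM in the p-UPF1 IP, and Hnrnpll had 9.78, 8.44 and 10.6 CPM against 12.0, 7.96 and 7.61 CPM. Hnrnpl was called higher with library totals (0.52).

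MBNL proteins drive the change from fetal to adult splicing. Mbnl1 fell from 25.0, 26.0 and 28.1 CPM to 6.44, 6.45 and 8.60 CPM, 3.67-fold, and Mbnl2 fell 1.93-fold. Celf1, which often opposes MBNL, had 37.6, 38.5 and 39.2 CPM against 30.2, 32.4 and 30.0 CPM (-0.31 ± 0.0712), a fall that turned to 0.09 with library totals. Rbfox2 binds UGCAUG next to alternative exons, and it was the 1 gene of its RBFOX, NOVA and KHDRBS group to rise, from 30.0, 28.5 and 30.1 CPM to 72.1, 62.7 and 61.3 CPM (log2 fold change 1.14 ± 0.0801, adjusted p = 6.93e-07, edgeR). Khdrbs1, or SAM68, fell 2.01-fold, and Nova1 and Nova2 had values of -0.56 and -0.59, neither of which was called with library totals, and Nova1 was not called without the third p-UPF1 IP library.

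Among the TDP-43, FET, matrin and DBHS genes, Ewsr1, a FET protein that couples transcription to splicing, rose from 30.0, 30.6 and 34.5 CPM to 57.1, 51.8 and 56.2 CPM (0.79 ± 0.0813, adjusted p = 1.18e-05, edgeR), with 18.3% of its windows shared with other symbols. Tardbp, which encodes TDP-43 and limits its own mRNA through its last exon, fell from 39.5, 41.5 and 47.2 CPM to 26.5, 25.1 and 23.0 CPM, 1.72-fold. Sfpq, a paraspeckle protein, overlapped between the groups (37.4, 38.1 and 44.0 CPM against 46.6, 43.5 and 41.0 CPM) and was called higher with library totals and when the third input library was left out (0.23). Nono, the partner of SFPQ, was lower (-0.45 ± 0.0907), which was not called with library totals, and 20.1% of its windows are shared with other symbols. Taf15 (0.11) and Matr3 (-0.17) were not called, and with library totals both were called higher, at 0.52 and 0.24. The TIA proteins bind U-rich RNA after weak 5′ splice sites. Tia1 had 5.52, 6.34 and 6.02 CPM against 4.58, 4.67 and 4.79 CPM, and its call as lower (-0.35 ± 0.133, adjusted p = 0.0485, edgeR) was lost in 12 of 13 alternatives, while leaving out any 1 of the 6 libraries ended it (adjusted p between 0.0506 and 0.157). Tial1 had 17.0, 16.4 and 18.7 CPM against 15.4, 16.5 and 15.6 CPM and was not called; with library totals both TIA genes turned positive and Tial1 was called higher (0.28).

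**Figure D2:**
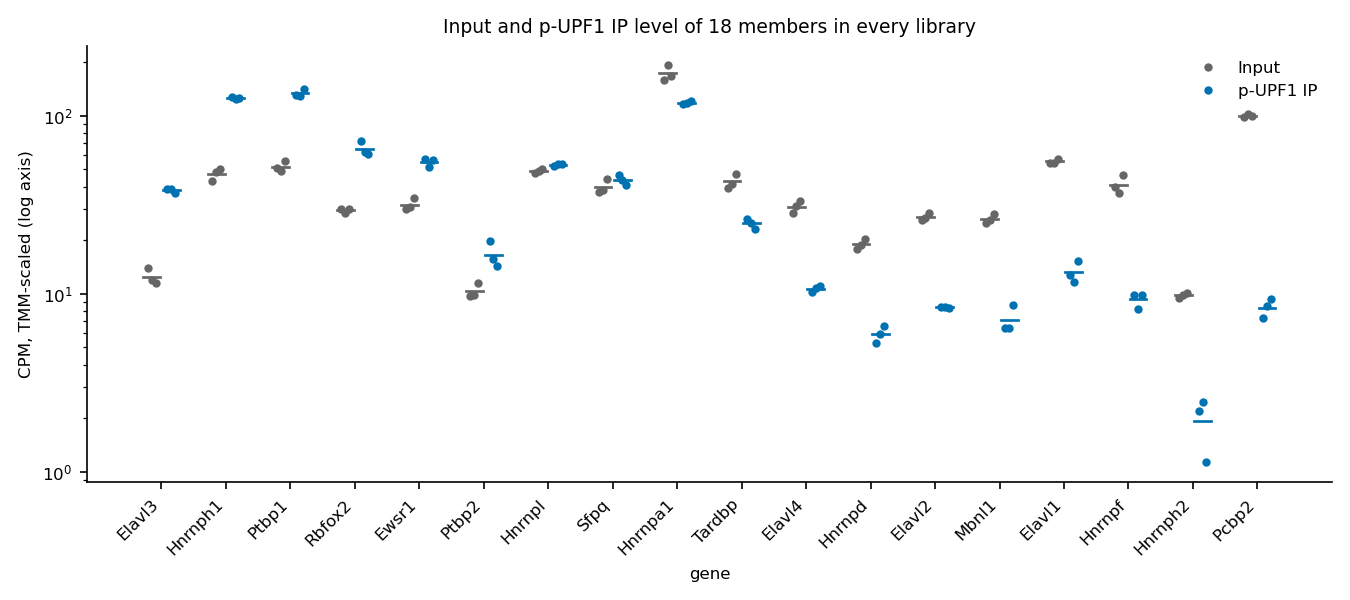
Level in every library (points, with means of 3 as bars) of 18 genes in input (grey) and the p-UPF1 IP (blue), in TMM-scaled CPM on a log axis. Genes are in the order of their log2 fold change, except that Hnrnpl (0.11) stands before Sfpq (0.13). The blue points of Elavl3, Hnrnph1, Ptbp1, Rbfox2, Ewsr1, Ptbp2 and, by less and without a call, Hnrnpl lie above the grey ones. Those of Pcbp2, at 7.29 to 9.30 CPM, lie furthest below, while Sfpq overlaps.

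The comparison with the rIgG IP asks which mRNAs were recovered through the p-UPF1 antibody rather than with IgG and beads, and it shares the p-UPF1 IP libraries with the comparison above. Of 44 genes tested, 11 were higher than in the rIgG IP (25.0%, where 17.9% of 12033 genes tested were) and 3 were lower (6.82%, where 5.59% were), by edgeR at an adjusted p under 0.05. Past a log2 fold change of 1 in size 8 were higher and 3 lower, where 17.5% and 5.34% of all genes were. The higher ones were Elavl3, Hnrnph1, Ewsr1, Ptbp2, Ptbp1, Rbfox2, Hnrnpl, Hnrnpa1, Hnrnpk, Sfpq and Matr3. Calls on Elavl3, Hnrnph1, Ewsr1, Ptbp1 and Rbfox2 held in each of 13 alternatives, and those on Sfpq, Matr3 and Ptbp2 were lost in 7, 9 and 6. Sfpq was not called without the first or the third rIgG IP library, Matr3 without the second or the third library of either group, and Hnrnpk without the second rIgG IP library. The median log2 fold change was 0.32 over the 44 genes and 0.89 over all tested, and with DESeq2 8 were higher and 5 lower, the share of higher genes among all calls being 56.1% in place of 76.2%.

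Elavl3 had 2, 1 and 0 counts in the rIgG IP libraries and 228, 284 and 262 in the p-UPF1 IP. As a share of all counts that is a ratio of 11.1, with an exact 95% interval from 3.79 to 54.1 for counting error, and the fitted log2 fold change was 3.53 ± 0.521 (adjusted p = 1.55e-05, edgeR). Hnrnph1 had 14, 5 and 7 counts against 748, 902 and 897 (log2 fold change 2.14 ± 0.272), and Ewsr1 6, 4 and 3 against 337, 377 and 399 (1.95 ± 0.336). Ptbp1 had 23, 6 and 5 counts against 767, 945 and 999 (1.86 ± 0.257), and Rbfox2 15, 4 and 4 against 425, 457 and 435 (1.38 ± 0.297). These 5 genes were thus higher than both input and the rIgG IP in every fit. Both comparisons use the same p-UPF1 IP libraries, and the share of all genes that pass both was not computed. Ptbp2 had 4, 0 and 0 counts in the rIgG IP against 116, 114 and 101, a ratio of 3.57 (1.38 to 13.2), and its call was lost when either the second or the third rIgG IP library was left out.

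Hnrnpl (log2 fold change 1.20 ± 0.295) and Hnrnpa1 (1.04 ± 0.265) were higher than in the rIgG IP. Over input, Hnrnpl was not called and Hnrnpa1 was lower. Hnrnpl had 11, 8 and 2 counts against 307, 388 and 380, and Hnrnpa1 had 36, 17 and 1 against 687, 859 and 860. Leaving out the first rIgG IP library ended the call on Hnrnpl, and fitting all 9 libraries together ended that on Hnrnpa1. Hnrnpk, Sfpq and Matr3, also higher than in the rIgG IP, were not called over input. Hnrnpll, with 1, 1 and 0 counts against 71, 58 and 54, had a ratio of 3.95 (1.08 to 32.8) and was not called (adjusted p = 0.0821, edgeR). The 3 genes that were lower than in the rIgG IP were lower than in input as well. Pcbp2 had 49, 16 and 4 counts against 43, 62 and 66 and was 8.73-fold lower (adjusted p = 1.85e-08, edgeR). Elavl1 had 12, 12 and 6 counts against 75, 85 and 108 (2.50-fold lower, adjusted p = 0.00504, edgeR), and Hnrnpf had 8, 9 and 2 against 58, 60 and 70 (2.24-fold lower, adjusted p = 0.0364, edgeR), which was not called without the second library of either group.

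Between the rIgG IP and input, edgeR called 0 of 45 genes higher and 0 lower, where 0.584% and 0.313% of 16280 genes were called. At an unadjusted p under 0.05, 14 of the 45 were lower and 0 higher, where 9.77% and 2.58% of all genes were, and 3 of the 45 passed with RLE factors, 8 with library totals and 4 with DESeq2. The median log2 fold change was -0.68 over the 45 and -0.84 over all genes, and by adjusted p DESeq2 called 1 lower (Hnrnpa1) and 0 higher. The order of the medians was not stable. It turned with DESeq2 (-0.35 over the 45 and 0.25 over all) and with filterByExpr (-0.60 over 44 genes and -0.44 over all). In the main edgeR fit the log2 fold change was below 0 for all but Rbfox2 and Nova1. Hnrnpa1 came closest (-1.34 ± 0.321, adjusted p = 0.0962, edgeR). Only 10 of the 45 genes had over 3 counts in the shallowest rIgG IP library, so smaller differences were not detectable at this depth.

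At the level of transcripts, 302 transcripts of 44 genes were tested, and 21 of 14 genes were higher and 70 of 32 genes lower in the p-UPF1 IP than in input, past a log2 fold change of 1 in size and an adjusted p under 0.05. These were 6.95% and 23.2%, where 8.55% and 16.2% of 42616 transcripts were called. Transcripts in both directions were found in 13 genes. GENCODE calls a transcript NMD-type when its stop codon lies well upstream of its last exon junction. Of the tested transcripts of this type 4 were higher, 5 lower and 17 not called. Of retained-intron transcripts 3 were higher, 6 lower and 53 not called. Shares over all transcripts of each type, and over all genes for both directions, were not computed. These counts are thus descriptive only. Of the 21 higher and 70 lower transcripts, 7 and 24 had no 35-nt window that is not also in another transcript of the gene, so that their counts rest on how Salmon apportioned shared fragments.

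In Ptbp1 the mix of transcripts differed between the groups. Its coding transcript Ptbp1-202, which includes the 34-nt exon printed above, had 677, 707 and 668 counts in input, or 56.9 ± 8.40% of the gene's counts (SD, n = 3), and 23, 66 and 30 in the p-UPF1 IP, or 4.33 ± 2.30% (log2 fold change -2.65 ± 0.368). NMD-type Ptbp1-201, in which the exon is skipped and the stop codon lies 361 nt before the last junction, had 279, 245 and 404 counts against 320, 346 and 373, and its share went from 25.1 ± 3.47% to 38.6 ± 2.76% (log2 fold change 1.67 ± 0.174, adjusted p = 0.00192, edgeR). The shorter NMD-type Ptbp1-207, which has the same junction and an additional exon of 78 nt upstream, had 0 counts in the 3 input libraries and 106, 177 and 222 in the p-UPF1 IP, at least 191-fold higher against 3 counts per library. That bound covers counting error only, and not how Salmon split fragments shared between transcripts of the gene. Retained-intron Ptbp1-213, which keeps the intron after the 34-nt exon, had 177, 107 and 173 counts against 316, 342 and 359, going from 12.5 ± 2.69% to 37.8 ± 2.97%. Every p-UPF1 IP library thus had a smaller share of the coding transcript than any input library.

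At the 34-nt exon of Ptbp2 the transcripts differed in direction. The coding transcript Ptbp2-201, which includes the exon, had 101, 101 and 145 counts in input against 0, 36 and 25 in the p-UPF1 IP, and was not called (-1.09 ± 1.18). Of the pair of NMD-type transcripts with the printed junction, Ptbp2-206 had 16, 5 and 0 counts against 74, 77 and 69 (log2 fold change 4.83 ± 1.20, adjusted p = 0.0346, edgeR). Ptbp2-208 had 70, 74 and 77 counts against 0 in every p-UPF1 IP library, which is at least 7.03-fold lower. Neither has a 35-nt window of its own, and the call on Ptbp2-206 was lost without the second input library or without any 1 of the p-UPF1 IP libraries.

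**Figure D3:**
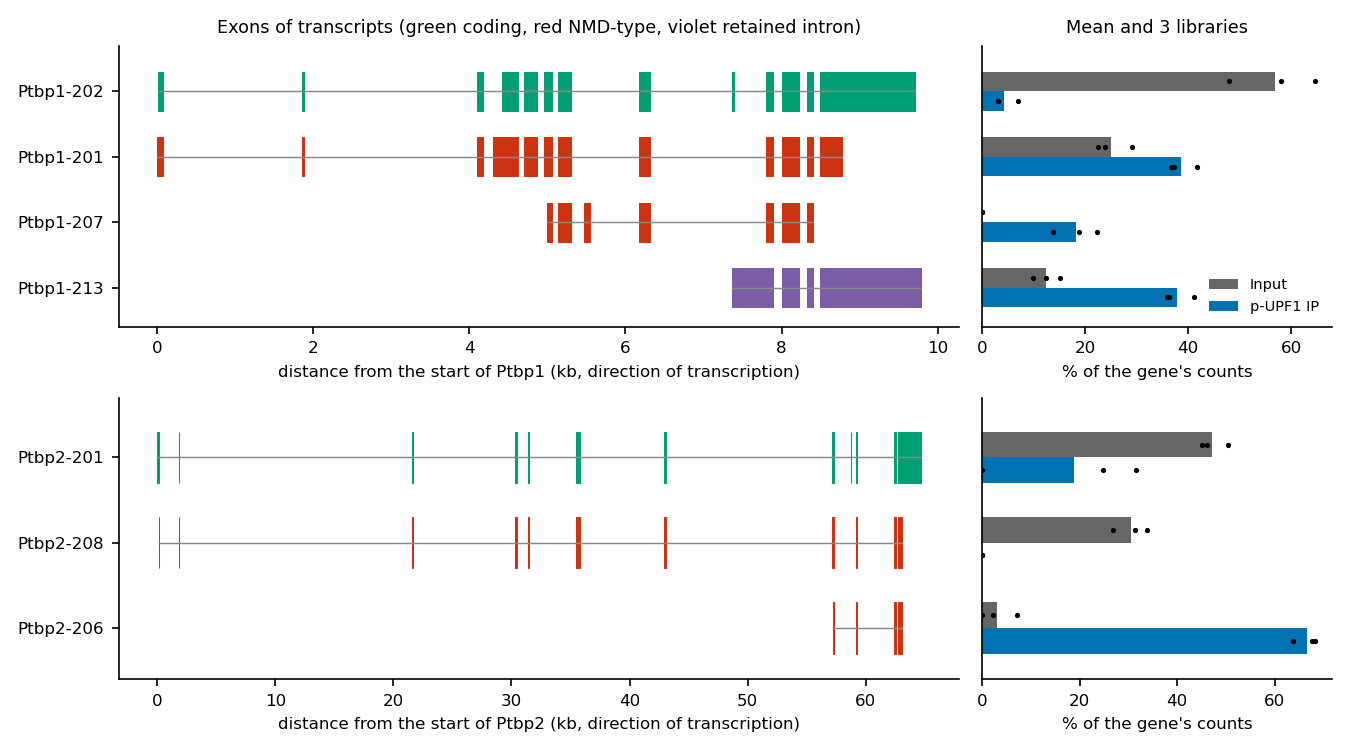
Left, exons (boxes) of transcripts of Ptbp1 and Ptbp2 against distance from the gene's start in kb, in green for coding, red for NMD-type and violet for retained-intron transcripts; right, percent of the gene's counts in input (grey) and the p-UPF1 IP (blue), as the mean (bar) and 3 libraries (points). The coding Ptbp1-202 takes 56.9% of the counts in input and 4.33% in the p-UPF1 IP, and Ptbp2-206 takes 3.14% and 66.6%.

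Summing transcripts by type gives a measure that does not depend on how the libraries were scaled: the log2 ratio of NMD-type to coding counts within a gene. It could be tested with limma in 15 of the 19 genes that have NMD-type transcripts. It was higher in the p-UPF1 IP than in input in 1 of 15, Ptbp1 (12.4% of 2221 genes tested were higher), and lower in 1 of 15, Hnrnpd (11.5% of all were lower). The median change was 0.87 in the 15 genes and 0.34 in all. With at least 50 counts per type the median of all genes turned to -0.34 (0.69 in 14 of these genes), without the third input library it was 0.12, and without the first p-UPF1 IP library the median of the 15 genes was 0.53.

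In Ptbp1, NMD-type transcripts took 22.4 to 29.0% of the gene's counts in the input libraries and 55.3 to 59.6% in the p-UPF1 IP, and the log2 ratio to coding counts rose by 4.96 ± 0.686 (SE; adjusted p = 0.00487, limma). Against all other transcripts of the gene, retained introns included, the rise was 1.98 (adjusted p = 0.0443, limma). In Hnrnpd, by contrast, NMD-type transcripts, among them Hnrnpd-208 with its stop codon 137 nt before the last junction, had 338, 355 and 403 counts in input against 11, 8 and 11 in the p-UPF1 IP, while coding transcripts had 69, 63 and 101 against 20, 35 and 36. Their share went from 82.3 ± 2.48% to 25.8 ± 8.70%, and the log2 ratio fell by 3.77 (SE 0.635, adjusted p = 0.00981, limma). In NMD-type transcripts of Ptbp1 and Hnrnpd, 3.21% and 24.6% of 35-nt windows are in no other type of transcript of the gene.

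In the other 13 genes the ratio was not called, though Ptbp2 and Tial1 were called higher with at least 50 counts per type, Tial1 also without the first p-UPF1 IP library, and Hnrnpll against all other transcripts of the gene. In Ptbp2 the share of NMD-type transcripts went from 33.7 ± 6.17% to 66.6 ± 2.42% with no overlap between the groups (change 1.79 ± 0.582, adjusted p = 0.0824, limma). In Hnrnpll, NMD-type Hnrnpll-203, which has the additional exon printed above, took 63.7 ± 6.89% of the counts in input and 94.2 ± 2.51% in the p-UPF1 IP, again without overlap (3.10 ± 1.11, adjusted p = 0.107, limma). Tial1 went from 5.13 ± 0.237% to 48.7 ± 31.7%, its p-UPF1 IP libraries spreading from 13.2 to 73.9% (3.95 ± 1.17, adjusted p = 0.0651, limma). Tial1-206, with the printed stop codon, had 0, 4 and 5 counts in input against 5, 43 and 49 in the p-UPF1 IP, and its call (adjusted p = 0.0476, edgeR) was lost in 8 of 13 alternatives, among them leaving out any 1 library other than the first of the p-UPF1 IP. Khdrbs1 went the other way, from 32.4 ± 4.45% to 10.3 ± 7.48% without overlap (-2.45 ± 0.964, adjusted p = 0.133, limma). Hnrnpu went from 38.4 ± 2.45% to 58.6 ± 3.60%, also without overlap, but its ratio to coding counts moved by 0.35 ± 0.558. Hnrnpdl (31.2 ± 2.64% and 37.5 ± 13.0%), Tardbp (29.4 ± 5.54% and 41.4 ± 9.80%) and Hnrnpa1 (65.8 ± 22.1% and 77.0 ± 2.26%) overlapped between the groups. Hnrnpa2b1 (6.99 ± 2.00% and 5.62 ± 9.74%) and Tia1 (23.9 ± 7.47% and 12.7 ± 22.1%) had NMD-type counts in only 1 of the 3 p-UPF1 IP libraries. Without that library, the second for Hnrnpa2b1 and the third for Tia1, the ratio was called lower. The p-UPF1 IP libraries left then all had 0 NMD-type counts, so these calls follow from the library dropped. Hnrnph3 was called higher without the third p-UPF1 IP library, its only one there with 0 NMD-type counts. In NMD-type transcripts of Hnrnpa2b1, 0% of windows are in no other type of transcript of the gene. Its ratio thus rests on how Salmon apportioned shared fragments. Such windows made up 2.00% in Ptbp2, 4.17% in Hnrnpll, 4.20% in Hnrnpu, 10.4% in Tial1 and 27.0% in Khdrbs1. The shares of these genes thus depend on that split as well.

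**Figure D4:**
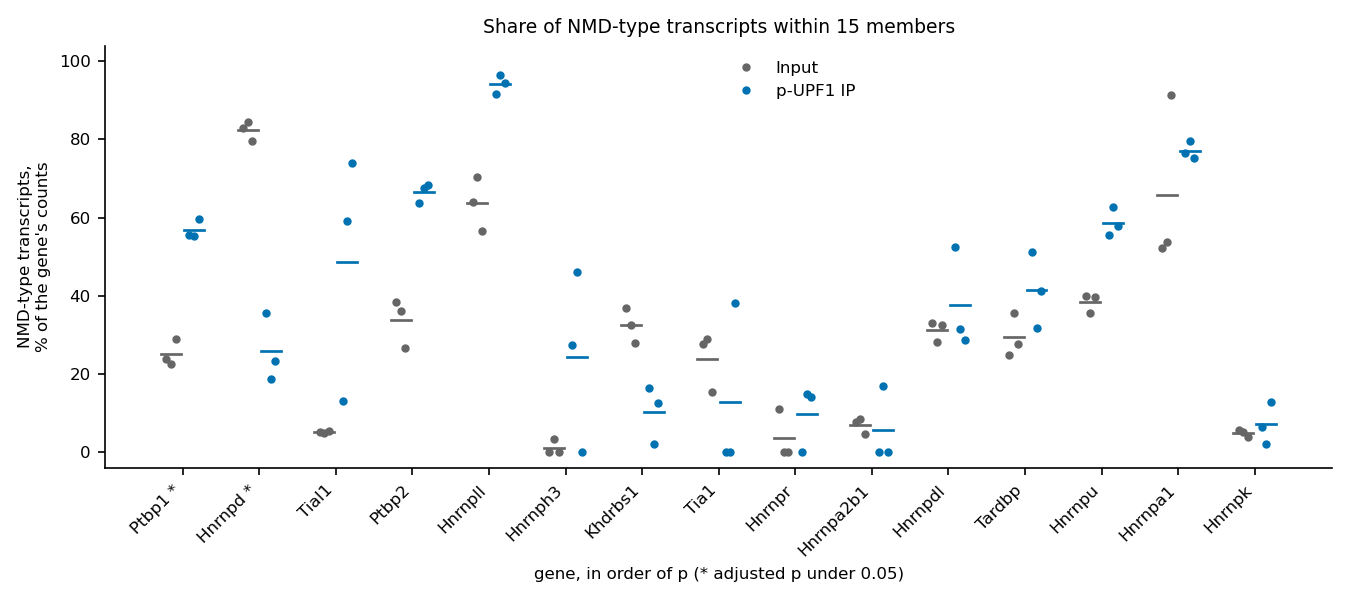
Percent of a gene's counts (vertical axis) in NMD-type transcripts in every input (grey) and p-UPF1 IP (blue) library, with means of 3 as bars, for the 15 genes tested in order of p; an asterisk marks an adjusted p under 0.05. Ptbp1 goes up (25.1 to 56.8%) and Hnrnpd down (82.3 to 25.8%), and Tial1, Ptbp2, Hnrnpll and Hnrnpu, upward, and Khdrbs1, downward, do not overlap between groups without being called.

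Transcripts of other types were called in further genes. Coding Elavl3-201 rose with its gene (276, 225 and 250 counts in input; 227, 282 and 258 in the p-UPF1 IP; log2 fold change 1.52), and 75.5% of its windows are its own. Hnrnph1-202, with no window of its own, had 0 counts in input against 443, 439 and 502 in the p-UPF1 IP, at least 536-fold higher, while noncoding Hnrnph1-213 had 33, 40 and 43 counts against 165, 191 and 160 (3.65). In Ewsr1, 3 processed transcripts rose, among them Ewsr1-209 (9, 11 and 9 counts against 76, 81 and 150; 4.85), as did coding Ewsr1-202, and coding Ewsr1-205 fell (433, 440 and 649 counts against 3, 3 and 0). In this paragraph, bounds against groups with 0 counts cover counting error only, and not the split of shared fragments. Elavl4 had no tested NMD-type transcript. Its coding Elavl4-206 and Elavl4-207 had 235, 231 and 396 and 251, 258 and 231 counts in input against 0 in the p-UPF1 IP, at least 27.1-fold and 23.6-fold lower, while Elavl4-204 had 0, 0 and 7 counts against 60, 78 and 59 (6.25, lost without the first input or the second p-UPF1 IP library). In Hnrnpa2b1, NMD-type Hnrnpa2b1-207 had 138, 146 and 103 counts in input against 0 in the p-UPF1 IP, at least 12.4-fold lower. Of the windows of NMD-type transcripts of Hnrnpa2b1, 0% are in no other type of transcript of the gene. The counts of Hnrnpa2b1-207 thus rest on how Salmon apportioned shared fragments. All 6 transcripts of Pcbp2 that were called were lower, Pcbp2-206 among them, with 781, 688 and 432 counts against 0 (at least 61.1-fold lower). Of the 6, Pcbp2-206 and Pcbp2-216 held in every alternative, Pcbp2-202, Pcbp2-212 and Pcbp2-214 were lost without the first or the third input library, Pcbp2-202 also without the second, and Pcbp2-220 was lost in all 13.

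Features of the most-counted coding transcript were compared across the 42 genes in which it had an annotated stop codon and at least 30 input counts. This is a description over genes that share these libraries. A complete 5′ end was not required. The transcripts of Hnrnpl (coding length 1846 nt) and Taf15 (974 nt) had a 5′ UTR of 0 nt, so some coding lengths are partial. GC content and the log2 fold change over input had a Spearman's rho of 0.44 over the 42 genes and 0.42 over 10216 genes, and coding length 0.33 and 0.24. For 3′ UTR length it was -0.12 over the 42 genes and 0.17 over all. The median GC content was 52.8% in the 6 higher genes with such a transcript and 44.1% in the 29 lower genes, and 3′ UTRs were 167 to 5172 nt and 96 to 6701 nt long.

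Among 26 other splicing regulators and relatives, 21 could be tested over input, and 10 were higher and 8 lower, where 26.3% and 35.7% of all genes were, with a median log2 fold change of 0.26. The 10 included neuronal factors such as Celf5 (79, 86 and 81 counts in input, 52, 73 and 60 in the p-UPF1 IP; 1.38 ± 0.135) and Srrm4 (254, 213 and 253 against 160, 176 and 163; 1.27 ± 0.0956), which promotes neural microexons. The mRNAs of both cold-inducible RNA-binding proteins passed, Cirbp as higher (1.56 ± 0.103) and Rbm3 as lower (-2.46 ± 0.123). Over the rIgG IP 5 of 19 were higher and 1 lower, where 17.9% and 5.59% of all genes were, and between the rIgG IP and input 0 of 20 were called by edgeR.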

How the data were processed

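RIP-seq libraries of N2A cells (3 input, 3 rIgG IP, 3 p-UPF1 IP) were grouped and numbered by the sample labels. The submitters' processing notes name STAR 2.7.0f, GRCm38.p6 and Salmon 0.13.1; the authors trimmed and mapped the reads, quantified transcripts, and deposited estimated counts per transcript, as whole numbers that are not scaled for depth. Fragments of this length often match several transcripts or paralogs, so transcript counts are less certain than gene sums.

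Here, counts were summed per gene symbol and each pair of groups was compared on its 6 libraries with edgeR 4.0.16 (TMM, quasi-likelihood test, summed count of at least 10, R 4.3.3), adjusted over all genes; a standard error is the log2 fold change over the root of F. Transcripts were tested likewise, with a log2 fold change past 1. NMD-type (nonsense_mediated_decay) and coding counts, at least 10 of each, were compared as a log2 ratio with a pseudocount of 0.5 by limma 3.58.1. Types, lengths and sequences came from GENCODE M21, to which all 527 transcripts matched (139921 of 140658 overall). Folds against all-0 groups are lower bounds from 3 counts per library, for counting error only. They do not cover how Salmon split fragments shared between transcripts. Replicates differed by more than sampling noise (chi-square per degree of freedom 3.62 to 15.6). The procedure was run on simulated data. For the NMD-type ratio these were drawn at a fixed proportion per gene and group, without added spread between libraries. That simulation therefore cannot vouch for the ratio calls under the spread seen here.

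Values per library are given for the 5 largest and 5 smallest log2 fold changes among genes called over input, up to 3 per direction in the other comparisons, up to 8 genes by smallest p for a transcript or the NMD-type ratio, Elavl4, and 15 genes known for NMD-coupled splicing; other genes and transcripts named were chosen after their values were seen. The genes and lists were chosen with earlier results of these data known. The alternatives tried were library totals, DESeq2 1.42.0, RLE factors, filterByExpr, no filter, all 9 libraries in one fit, a replicate block, leaving out each library, and, for the ratio, a pseudocount of 1, at least 50 counts per type, and all other transcripts as the second type.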

Additional observations from a re-analysis of the deposited data

How the results depend on the processing

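Over input, genes higher went from 7 to 14 with library totals and to 4 past a log2 fold change of 1, and genes lower from 29 to 18 and 12; leaving out 1 library gave 7 to 8 higher and 25 to 28 lower. Over the rIgG IP, genes higher went from 11 to 7 with filterByExpr and with all 9 libraries, genes lower from 3 to 5 with DESeq2 and with filterByExpr, and leaving out 1 library gave 8 to 11 and 2 to 3. For the rIgG IP over input, genes lower went from 0 to 1 with DESeq2, filterByExpr or the replicate block, 2 with all 9 libraries and 3 without a filter, and 0 to 1 without 1 library; genes higher stayed at 0 in all fits. Member transcripts higher, 21, became 11 with the replicate block and 16 to 21 without 1 library, and those lower, 70, became 21 and 43 to 67. Genes with a higher NMD-type ratio went from 1 to 3 with at least 50 counts per type, to 2 against all other transcripts and to 1 to 2 without 1 library; those lower went from 1 to 0 with the replicate block and to 1 to 2 without 1 library. The causes were not tested. Log2 fold changes over input that changed sign, among genes with values per library, were those with library totals of Celf1 (0.0939), Hnrnpll (0.32), Tia1 (0.0595) and Tial1 (0.28), and of Hnrnpll when 1 library was left out (-0.26 to 0.0650), above 0 without the third input library or without the second or the third p-UPF1 IP library. Of the other refits of these genes, 315 kept direction and side of the threshold, 13 lost the call and 3 gained it. Libraries of the same replicate number did not deviate together (r = 0.00220 to 0.0586 over input), so the numbers are not taken as a pairing; with the block, Hnrnpd's ratio had an adjusted p of 0.0666 (limma), and the calls on Elavl4-204, Elavl4-206, Elavl4-207, Hnrnpa2b1-207, Ptbp2-206, Ptbp2-208, Tial1-206, Pcbp2-202, Pcbp2-212, Pcbp2-214 and Pcbp2-220 were among those lost. The rIgG IP depth limits every comparison with it.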
